A study of Mus musculus with 2 samples.

Results

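Open chromatin at 10 genes for regulators of G-protein signalling (RGS) was described in mouse cardiac progenitor cells (CPCs). The genes were Rgs2, Rgs3, Rgs4, Rgs5, Rgs6, Rgs10, Rgs12, Rgs14, Rgs16 and Rgs19. They were put together with the 14 peaks of Rgs3 already known, and their peaks were the distinct intervals of the deposited peak list that carried one of these symbols. These were 28 of 26232 distinct intervals, at 9 of the 10 genes. Because the choice rested on the same list, all counts are descriptions and no test was made.

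The cells were made from E14 Tg(Nkx2–5-EmGFP) embryonic stem cells, a mouse line with a green fluorescent reporter of the early heart gene Nkx2-5. They were used at passages 16-20 with C57BL/6 given as the strain label, and were turned into cardiac progenitors by directed differentiation to day 5. The single group held 2 replicate samples from independent differentiations, each of 100000 cells, with no treatment and no knockdown named in their labels. Both samples came from the same reporter line, and no sort on the reporter is named in the labels. ATAC-seq, which uses the Tn5 transposase to cut and tag open DNA, was performed on both, and 1 list holds the peaks found in both. Cells with Isl1 knockdown, which the series also names, were not analysed here. The list gives neither read depth nor any value for a single replicate, so no replicate error exists and no difference between genes can be set against one.

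RGS proteins speed up the GTP hydrolysis of activated G-protein alpha subunits and so shorten the signal of G-protein coupled receptors. They share the RGS domain and are grouped by it into the R4, R7, R12 and RZ families. In heart tissue several of them limit the action of acetylcholine, adrenaline, angiotensin or endothelin on rate, contraction and growth. Accessible chromatin commonly marks active start sites, many of which are rich in CpG dinucleotides, and distal regulatory elements. A peak shows accessibility, not expression, and a gene without a peak is not shown to be closed.

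Over all protein coding genes, 62.5% had at least 1 peak. Against defining markers, 8 of 9 genes of cardiac progenitors had a peak, with Isl1 at 8 peaks, Tbx20 at 6 and Tbx5 at 5, while Hand2 had none. Of 4 genes of pluripotent cells, Nanog and Zfp42 had 2 peaks each, and Pou5f1 and Dppa3 had none. Of 4 liver genes 3 had a peak, but none of these lay within 1 kb of a transcription start site (TSS). Of the other markers, Zfp42 had a peak at −132 bp from its assigned TSS, and the nearest Gata4 peak was at −1036 bp. Over the whole list, 15351 genes had a peak, with a median of 1.

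The sequence at start sites is shown first, to set the start sites with a peak beside those without. Each line gives the 120 bases just upstream of an annotated coding start on mm9, 5′ to 3′ on the strand of the transcript, with every CpG in capitals. The first set holds start sites that lay under a peak.
Rgs2, chr1:145851292-145851411, minus strand: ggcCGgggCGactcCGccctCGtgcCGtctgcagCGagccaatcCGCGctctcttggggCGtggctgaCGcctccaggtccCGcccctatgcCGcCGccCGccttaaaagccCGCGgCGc
Rgs6, chr12:83717792-83717911, plus strand: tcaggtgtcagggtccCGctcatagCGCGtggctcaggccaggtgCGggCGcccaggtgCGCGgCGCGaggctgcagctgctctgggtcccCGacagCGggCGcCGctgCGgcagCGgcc
Rgs10, inner start, chr7:135561688-135561807, minus strand: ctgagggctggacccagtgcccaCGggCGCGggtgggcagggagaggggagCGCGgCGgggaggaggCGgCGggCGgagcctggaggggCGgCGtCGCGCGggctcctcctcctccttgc
Rgs12, outermost start, chr5:35291974-35292093, plus strand: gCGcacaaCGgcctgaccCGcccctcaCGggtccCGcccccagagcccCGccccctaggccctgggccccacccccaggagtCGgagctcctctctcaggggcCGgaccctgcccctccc
Rgs19, chr2:181428683-181428802, minus strand: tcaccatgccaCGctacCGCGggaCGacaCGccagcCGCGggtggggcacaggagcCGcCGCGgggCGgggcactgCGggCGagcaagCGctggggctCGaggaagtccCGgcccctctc
Rgs16, chr1:155587359-155587478, plus strand: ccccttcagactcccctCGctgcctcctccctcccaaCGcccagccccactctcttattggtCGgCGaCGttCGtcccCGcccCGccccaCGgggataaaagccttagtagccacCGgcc
Rgs4, chr1:171677774-171677893, minus strand: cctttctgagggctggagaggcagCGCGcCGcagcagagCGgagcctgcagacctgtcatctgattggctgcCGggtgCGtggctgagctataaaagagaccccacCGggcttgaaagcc
Rgs3, start 23754 bp into the gene, chr4:62244515-62244634, plus strand: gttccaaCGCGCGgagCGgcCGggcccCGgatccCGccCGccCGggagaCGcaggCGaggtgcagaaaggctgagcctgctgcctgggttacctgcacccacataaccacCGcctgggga
Rgs3, start 114192 bp into the gene, chr4:62334953-62335072, plus strand: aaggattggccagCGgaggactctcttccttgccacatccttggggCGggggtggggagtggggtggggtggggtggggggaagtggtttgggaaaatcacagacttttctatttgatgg
Rgs12, start 49612 bp into the gene, chr5:35341586-35341705, plus strand: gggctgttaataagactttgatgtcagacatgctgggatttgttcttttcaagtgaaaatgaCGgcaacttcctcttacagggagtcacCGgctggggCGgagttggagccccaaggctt
The second set holds the outermost coding starts that lay under no peak.
Rgs3, outermost start, chr4:62220761-62220880, plus strand: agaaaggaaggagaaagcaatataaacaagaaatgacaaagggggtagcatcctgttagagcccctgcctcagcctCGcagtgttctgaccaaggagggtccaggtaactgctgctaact
Rgs5, chr1:171585512-171585631, plus strand: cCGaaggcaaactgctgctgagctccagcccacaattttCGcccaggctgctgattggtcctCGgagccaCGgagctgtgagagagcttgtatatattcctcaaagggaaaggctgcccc
Rgs14, chr13:55470973-55471092, plus strand: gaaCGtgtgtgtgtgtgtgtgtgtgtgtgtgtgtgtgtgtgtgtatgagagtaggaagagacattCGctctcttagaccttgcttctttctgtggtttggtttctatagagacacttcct
Rgs10, outermost start, chr7:135562273-135562392, minus strand: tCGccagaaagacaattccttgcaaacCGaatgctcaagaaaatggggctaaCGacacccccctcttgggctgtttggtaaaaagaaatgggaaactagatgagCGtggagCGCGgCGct
All 33 annotated coding starts of the 10 genes were counted. The 17 under a peak had a median of 12 CpGs in these windows, with a range of 0 to 18. The 16 others had a median of 2, with a range of 0 to 7. The ranges overlapped. The covered starts include Rgs19 starts at 0, 30, 47, 57 and 167 bp into the gene, with 16, 15, 15, 15 and 18 CpGs. Neighbouring windows there share bases, so the covered median counts some CpG-dense sequence more than once. Some windows of the other starts also overlap, so the windows are not independent. Among the outermost starts, those under a peak had 17 CpGs at Rgs2, 16 at Rgs19, 15 at Rgs6, 10 at Rgs16, 8 at Rgs12 and 7 at Rgs4. Those under no peak had 7 at Rgs10, 4 at Rgs5, 2 at Rgs14 and 1 at Rgs3. Covered starts with few CpGs were inner starts of Rgs3, with 2 and 3, and of Rgs12, with 3, 3 and 0.

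Peaks were unevenly spread over the 10 genes. Rgs3, an R4 family member that acts on Gi and Gq alpha subunits and exists in long and short forms, had 14 peaks. Rgs6, an R7 family member that works as a complex with the beta subunit Gnb5 and restrains muscarinic signalling in the sinoatrial node, had 6. Rgs12, a large R12 member with PDZ and phosphotyrosine-binding domains, had 2. A single peak was assigned to each of Rgs2, Rgs4, Rgs10, Rgs14, Rgs16 and Rgs19, and none to Rgs5, an R4 member known as a pericyte and vascular smooth muscle marker. Rgs3 alone held 14 of the 28 peaks (50.0%), and Rgs3 with Rgs6 held 20 (71.4%).

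Of the 10 RGS genes 9 had a peak, against 62.5% of the 21900 protein coding genes of the reference table. Among the genes with a peak, 60.8% had exactly 1, so the 6 single-peak RGS genes matched the most common count in the list. At least 6 peaks, the number at Rgs6, were found at 1.95% of genes with a peak, and at least 10 at 0.124%. Rgs3 shared the highest count with Tead1, followed by Med13l and Rnf220 with 13 peaks each.

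**Figure D1:**
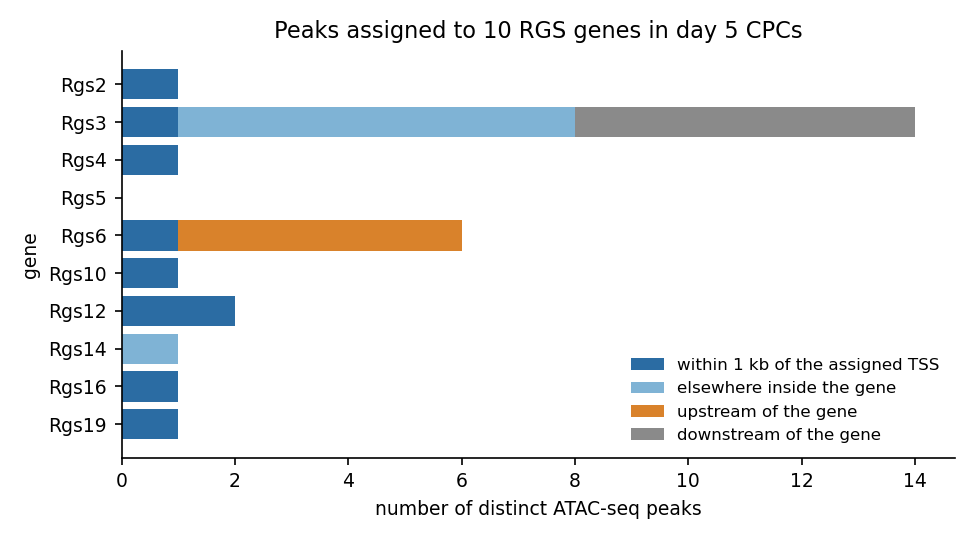
The number of distinct ATAC-seq peaks (x axis) assigned to each of the 10 RGS genes (y axis) is drawn as bars, coloured by where the peak midpoint lay. Rgs3 reaches 14 with 8 peaks inside the gene and 6 downstream, Rgs6 reaches 6 with 5 upstream, and Rgs5 has none.

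By the deposited distances, 9 of the 28 peak midpoints were within 1 kb of the assigned TSS (32.1%, exact 95% binomial interval 15.9 to 52.4%), against 44.9% of all peaks. This interval, like the others given, covers counting error over peaks only. Measured instead from the nearest annotated start of the same gene, 13 of the 28 were within 1 kb (46.4%, 27.5 to 66.1%), against 48.4% of the peaks whose symbol is in GENCODE. By the deposited distances Rgs3 had 1 of 14 peaks there (7.14%, 0.181 to 33.9%), while the other RGS genes together had 8 of 14 (57.1%, 28.9 to 82.3%). Another 9 of the 28 peaks lay over 50 kb from the assigned TSS, against 17.0% of all peaks, and all 9 belonged to Rgs3 or Rgs6. From the nearest annotated start of Rgs3, its peaks with deposited distances of 59168 and 68999 bp were 33462 and 43293 bp away. For each of the 28 peaks the nearest coding TSS of the GENCODE annotation belonged to the same gene as the deposited symbol.

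The 14 peaks of Rgs3 began well inside the gene and continued far beyond its end. Rgs3 lies on the plus strand of chromosome 4 (chr4:62220881-62364052 on mm9) and is 143.172 kb long. From the first to the last peak was 223.257 kb. Inside the gene lay 8 peaks, and 6 lay past its 3′ end. Of the latter, 2 fell in introns of the noncoding gene Gm11210, with midpoints 5067 and 19243 bp past the end of Rgs3. The other 4 were intergenic, at 30124, 39955, 61263 and 102809 bp past the end. The nearest peak after the last one was 138109 bp away and was assigned to Zfp618.

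Neighbouring Rgs3 peaks were separated by 3124 to 40764 bp, with a median gap of 11304 bp. Of 25967 runs of 14 consecutive peaks in the whole list, 2.95% spanned no more than the Rgs3 run, and the median run spanned 751.739 kb. The runs overlap one another, so this places Rgs3 in the list and is no test. Among the 17 genes with at least 10 peaks and a single GENCODE gene, Rgs3 ranked 7 by peaks inside the gene per 100 kb of gene, with 5.59. Rnf220 had 5.76, and all 13 of its peaks lay inside it, against 8 of 14 for Rgs3. The 6 genes above Rgs3 had from 1 to 13 peaks inside.

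Rgs3 has 16 annotated start sites, 9 of them of coding transcripts, and its peaks met only some of them. No peak lay at the outermost coding start (position 62220881, 610 codons), where the nearest peak midpoint was 23608 bp downstream. The starts near 62280554 and 62280768, which open transcripts of 966 and 590 codons, were also uncovered, with the nearest midpoints 10650 and 10436 bp away. A peak of 1143 bp (chr4:62243919-62245061) covered the coding start at 62244635, whose transcript has 602 codons. Its midpoint was 146 bp upstream of that start, although the deposited distance is 23608 bp because it was measured from the outermost start.

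The next coding start under a peak was at 62335073, which opens a transcript of 568 codons. Its peak (chr4:62334267-62335240, 974 bp) had its midpoint 320 bp upstream of it and carried a deposited distance of −255 bp. This was the only Rgs3 peak classed within 1 kb by the deposited distances. Another peak (chr4:62360159-62361407, 1249 bp) covered the coding start at 62360714, which opens a short transcript of 168 codons near the 3′ end and lies over an exon. A further peak (chr4:62295064-62296333, 1270 bp) lay 286 bp past the start of a retained-intron transcript at 62295412. By all annotated starts of the gene, 4 of 14 Rgs3 peaks were therefore within 1 kb (28.6%, 8.39 to 58.1%), in place of 1 by the deposited distances.

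The deposited distances of Rgs3 were measured from 3 start sites. A single peak was measured from position 62220881, 4 from 62280706 and 9 from 62335008, so a sign or size cannot be compared between Rgs3 peaks without this origin. The other intronic peaks lay at chr4:62252347-62253117 (771 bp), chr4:62290470-62291939 (1470 bp), chr4:62305193-62305941 (749 bp) and chr4:62321217-62322962 (1746 bp). The second of these also fell within the overlapping gene Gm11209. Their deposited distances were −27975, 10498, 24860 and −12919 bp. The 1746 bp peak was the widest of all 28, and 93.8% of all peaks beyond 1 kb from a TSS were no wider.

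Downstream of Rgs3 the 6 peaks were 815, 1062, 955, 1628, 935 and 628 bp wide in order of position. Their deposited distances ran from 34111 to 131853 bp. The most distant one (chr4:62466548-62467175) was also the narrowest of the 28. The widest of the 6 (chr4:62403194-62404821, 1628 bp) was exceeded among the Rgs3 peaks only by the intronic peak of 1746 bp.

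**Figure D2:**
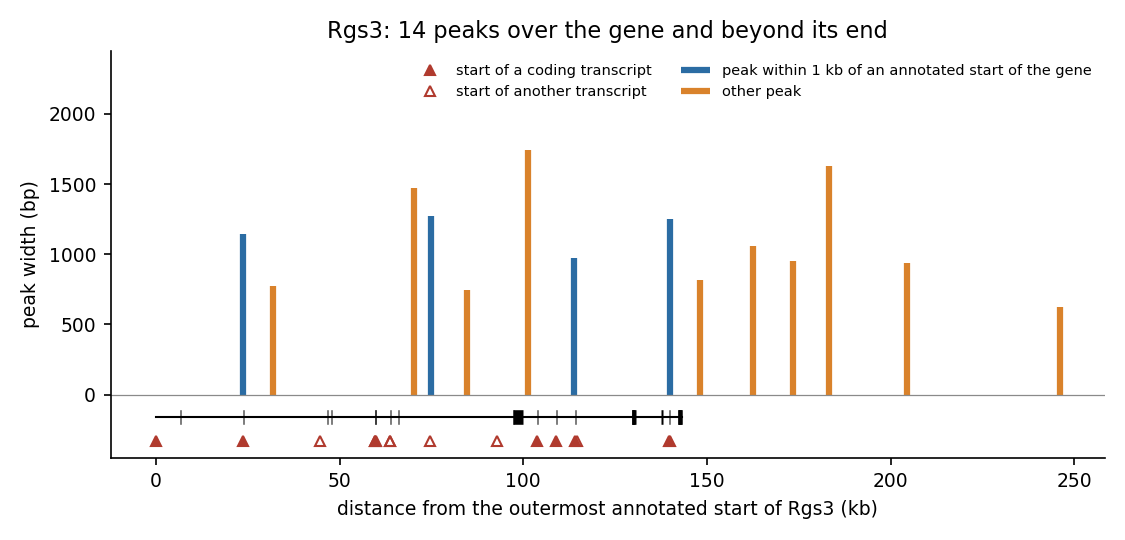
The 14 Rgs3 peaks are drawn as vertical lines at their midpoints (x axis, kb from the outermost annotated start), with height giving peak width in bp, above the gene model in black and its annotated starts as triangles. The 4 blue peaks lie within 1 kb of an annotated start, none of them at 0 kb, and 6 peaks lie beyond the gene end at 143.172 kb.

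At Rgs6 the arrangement was the opposite, with peaks before the gene and few in it. Rgs6 lies on the plus strand of chromosome 12 (chr12:83717912-84259755) and is 541.844 kb long. A peak of 1519 bp (chr12:83717597-83719115) covered its outermost coding start, with the midpoint 443 bp past the GENCODE start and a deposited distance of −131 bp. The other 5 peaks were intergenic, between Sipa1l1 and Rgs6. Of these 4 stood close together, at −146534, −138553, −129620 and −123563 bp, with gaps of 6611, 7847 and 5313 bp. They were 1366, 1375, 796 and 692 bp wide (chr12:83570696-83572061, chr12:83578673-83580047, chr12:83587895-83588690 and chr12:83594004-83594695).

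The fifth upstream peak (chr12:83663730-83664585, 856 bp) stood apart at −53755 bp. The 2 inner coding starts of Rgs6, which open transcripts of 368 and 437 codons, lay under no peak, with the nearest midpoints 34461 and 88006 bp away. The only other peak inside this long gene carried the symbol 1700085C21Rik. In all, 0.185 peaks per 100 kb carried the symbol Rgs6 inside the gene, against 5.59 for Rgs3.

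Part of the Rgs6 upstream sequence is repeated in the genome. In the peak at −123563 bp, 69.1% of 32-base words occurred more than once in the mm9 genome, with at most 2 copies. In the peak at −53755 bp the share was 13.2%, with words of up to 6366 copies. In the other 26 peaks it was at most 11.4%, and in 14 peaks it was 0. The 11.4% was in the Rgs3 peak at 90307 bp, with words of up to 10770 copies. Words of up to 800351 copies lay in the Rgs3 peak at 14992 bp (4.36%) and the Rgs16 peak (4.54%). No filter on mapping quality is named in the methods, and the effect of repeats on these peaks was not tested.

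**Figure D3:**
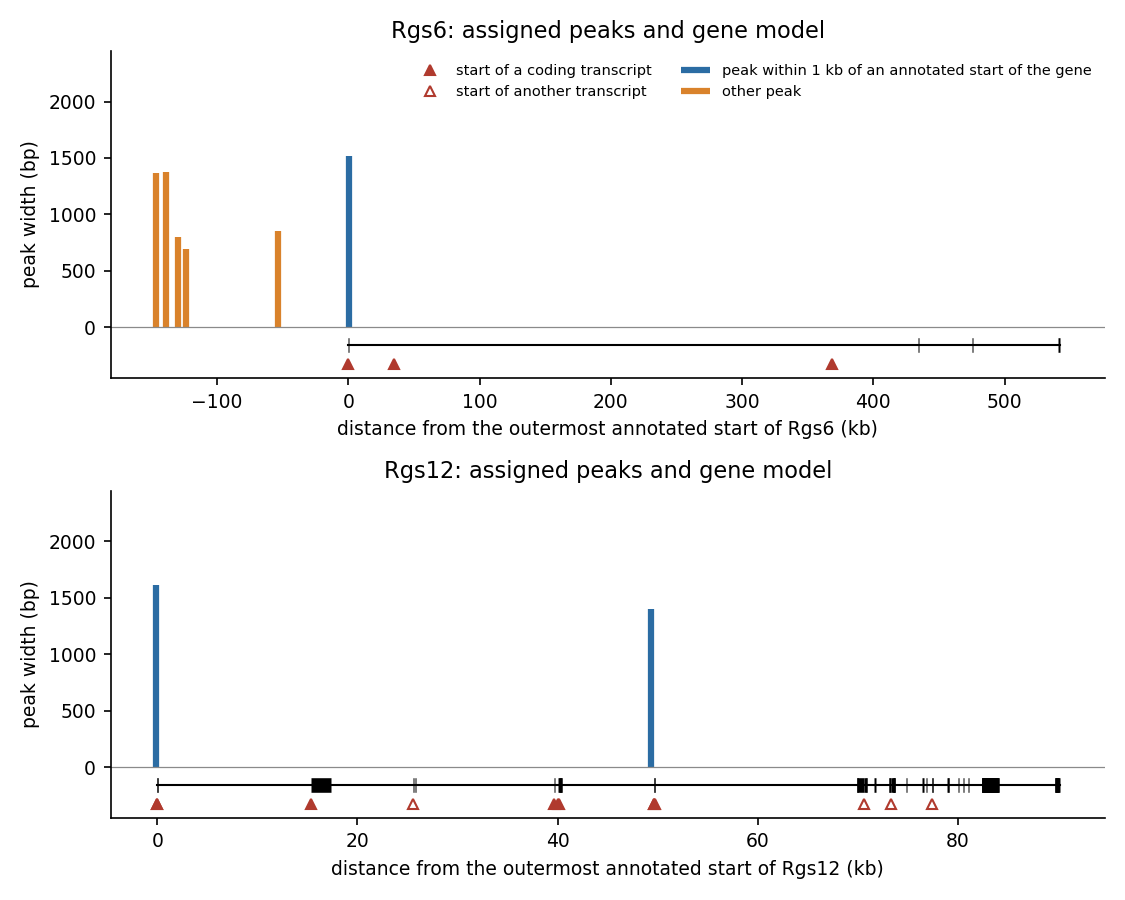
Peaks of Rgs6 (top) and Rgs12 (bottom) are drawn as vertical lines at their midpoints (x axis, kb from the outermost annotated start of each gene), with height giving peak width in bp, above the gene models and annotated starts. At Rgs6 5 peaks lie before the gene and 1 at its start, while both Rgs12 peaks lie at annotated starts of coding transcripts.

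The R12 genes had 1 or 2 peaks each. At Rgs12 (chr5:35292094-35382293, plus strand) a peak of 1611 bp (chr5:35291129-35292739) covered the outermost coding start, which opens a transcript of 1381 codons. A second peak of 1399 bp (chr5:35340703-35342101) covered 3 inner coding starts, at 35341706, 35341727 and 35341833, of transcripts with 723, 499 and 793 codons. The start of the longest Rgs12 transcript, at 35307422 with 1451 codons, lay 15489 bp from the nearest midpoint. The 2 Rgs12 peaks were unlike in base composition, with a CpG ratio, observed over expected, of 0.67 at the outermost start and 0.06 at the inner starts.

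Rgs10, a small RGS protein found in brain and immune cells, had 1 peak of 1009 bp on chromosome 7 (chr7:135561251-135562259). It covered the inner coding start at 135561687 (181 codons) and ended just short of the outermost one at 135562272 (85 codons). It had the highest GC content of the 28 peaks, 70.3%. Rgs14, which also binds Ras-like GTPases, had a peak of 1474 bp on chromosome 13 (chr13:55479876-55481349) at a deposited distance of 9519 bp. This peak lay 82 bp past the start of a retained-intron transcript at 55480530. The only coding start of Rgs14, at 55471093, was uncovered, and the nearest midpoint was 7050 bp upstream in a peak assigned to Lman2.

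The single-peak R4 genes and Rgs19 each had their peak at the outermost coding start. Rgs2, which prefers Gq and is known for its part in blood pressure control, had a peak of 1349 bp at −47 bp (chr1:145850653-145852001). It stood far from other peaks, with 189082 bp to the nearest one, and 3.58% of all peaks were at least as isolated. Rgs16, a Gi and Gq regulator with a circadian role in the brain, had a peak of 913 bp at 114 bp (chr1:155587142-155588054). Rgs19, an RZ family regulator of Gi, had a peak of 1042 bp at 50 bp (chr2:181428112-181429153).

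Rgs4 and Rgs5 are neighbours on chromosome 1, 45.663 kb apart. At Rgs4, which limits parasympathetic signalling in the sinoatrial node, a peak of 691 bp lay at 34 bp (chr1:171677395-171678085). It was narrow for its place, since only 2.17% of all peaks within 1 kb of a TSS were as narrow or narrower. Rgs5 (chr1:171585632-171625944) had no peak inside it, and no peak lay between it and Rgs4. The nearest midpoint to the Rgs5 start was that of the Rgs4 peak, 92107 bp away.

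The presence of a peak at the outermost coding start went with base composition. A start was called CpG-rich where, in the 500 bp on either side, GC made up 50% of bases or more and CpGs were observed at 0.6 or more of the number expected from base composition. By this measure Rgs2, Rgs6, Rgs10, Rgs12 and Rgs19 were CpG-rich, and a peak overlapped the window at 5 of 5, against 89.4% of 9959 CpG-rich starts in the genome. Of the other 5 genes, Rgs4 and Rgs16 had a peak there and Rgs3, Rgs5 and Rgs14 did not, against 24.9% of 12288 other starts. Rgs16 was just outside the definition, with a ratio of 0.58. With both classes together 7 of 10 genes had such a peak, against 53.8% of all protein coding genes.

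When any annotated start of the gene was counted, 9 of 10 RGS genes had a peak midpoint within 1 kb, against 56.6% of protein coding genes. The additional 2 genes were Rgs3 and Rgs14. Of all protein coding genes, 3.26% had a peak midpoint within 1 kb of any annotated start while no peak overlapped the window at the outermost coding start. Over all 33 annotated coding starts of the 10 genes, 17 were covered by a peak. Of the 10 CpG-rich ones 9 were covered (90.0%, 55.5 to 99.7%), and of the other 23, 8 were covered (34.8%, 16.4 to 57.3%). Several of these starts lie within 1 kb of each other and share a peak, as at Rgs19 and Rgs12, so they are not independent.

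**Figure D4:**
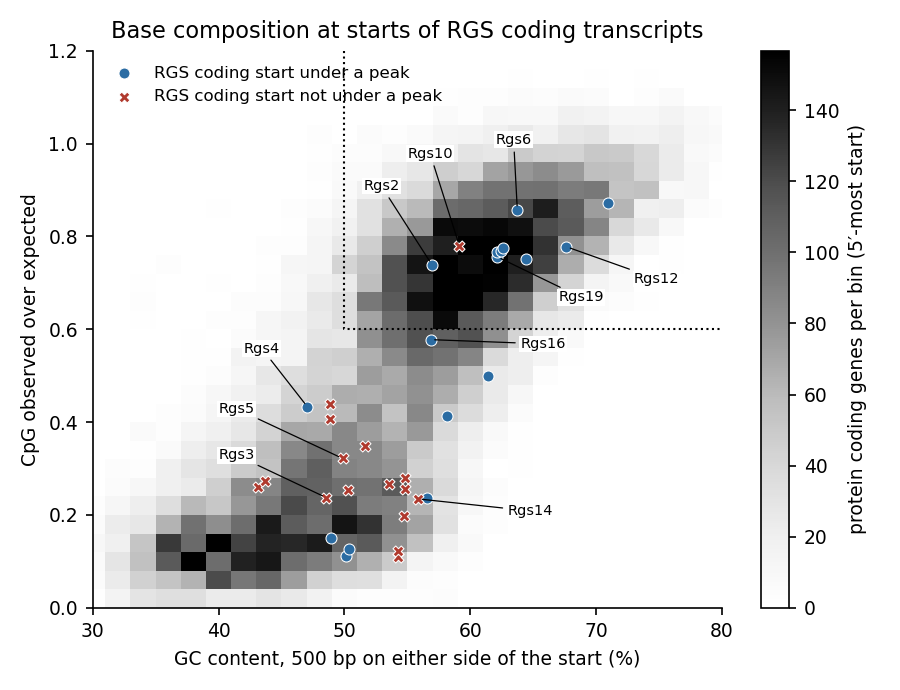
Each marker is an annotated coding start of an RGS gene, placed by the GC content (x axis, %) and the CpG observed over expected ratio (y axis) of the 500 bp on either side, over a grey map of the outermost coding starts of all protein coding genes. Names point to the outermost start of each gene, the dotted lines mark the CpG-rich class, and starts under a peak (blue circles) fill that class except for the outermost start of Rgs10.

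RGS peaks were close to the whole list in width. Their median was 1052 bp with a range of 628 to 1746 bp, against a median of 1081 bp with quartiles of 835 and 1433 bp for all peaks. The 9 peaks within 1 kb of the assigned TSS had a median of 1042 bp, below the lower quartile of 1072 bp for all such peaks, and ranged from 691 bp at Rgs4 to 1611 bp at Rgs12. The 19 other RGS peaks had a median of 1062 bp, against 911 bp with quartiles of 735 and 1146 bp for all peaks beyond 1 kb. By the deposited distances the RGS peaks at start sites were thus no wider than the others. Over the whole list those at start sites were wider. The others by this class include Rgs3 peaks of 1143, 1249 and 1270 bp and the Rgs14 peak of 1474 bp. Each of these lay within 1 kb of an annotated start of its gene. Measured from the nearest annotated start of the same gene, the order turned round. Peaks within 1 kb then had the larger median width, as over the whole list, so the contrast rests on the deposited distances. The width of an interval also depends on the peak caller and on the depth of the replicate whose coordinates were kept, and neither can be told apart from chromatin here.

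The base composition of the RGS peaks followed their position. The median CpG ratio was 0.67 at the 9 start site peaks and 0.20 at the 19 others, against 0.68 and 0.24 over the whole list. In Rgs3 the median was 0.20, with the highest ratio of 0.48 at the peak over the start 23754 bp into the gene. Median GC content was 53.6% in the 28 peaks and 54.5% in all peaks.

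Short motifs were counted on both strands in the central 300 bp of each peak. The letters searched were CTAATGG or CTAATTG for Isl1, the LIM-homeodomain factor of cardiac progenitors at the centre of the study, AGATAA for GATA factors, GGAATG for TEAD factors and TGANTCA for AP-1. None of these motifs contains another. The Isl1 letters were in 0 of 28 windows (0 to 12.3%), against 3.13% of all peaks, and those of AP-1 in 0 of 28 against 6.79%. The GATA letters were in 1 of 28 (3.57%, 0.0904 to 18.3%) against 9.5%. The TEAD letters were in 8 of 28 (28.6%, 13.2 to 48.7%) against 16.5%. Each background share lies inside the counting interval of the RGS share, and no test was made. The intervals treat peaks as independent, although 14 of the 28 belong to Rgs3. Among the 19 RGS peaks over 1 kb from the assigned TSS, the central windows held Isl1 letters in 0, GATA in 1, TEAD in 5 and AP-1 in 0, against 4.54%, 14.6%, 22.4% and 9.88% of all peaks at that distance.

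Over whole peaks the Isl1 letters were found in 6 of 28 (21.4%, 8.30 to 41.0%), against 12.9% of all peaks. Of these 5 were Rgs3 peaks and 1 was the most distant Rgs6 peak, and the match nearest to a midpoint was at −185 bp. The 7 sites are printed on the plus strand of mm9 with 30 bases on either side and the match in capitals.
Rgs3, −264 bp from the midpoint of the peak at 23608 bp, chr4:62244195-62244261, plus strand: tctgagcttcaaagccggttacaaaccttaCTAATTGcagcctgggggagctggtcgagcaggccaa
Rgs3, 530 bp from the midpoint of the same peak, chr4:62244989-62245055, plus strand: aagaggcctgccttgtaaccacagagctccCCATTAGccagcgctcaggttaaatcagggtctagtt
Rgs3, −324 bp from the midpoint of the peak at −27975 bp, chr4:62252377-62252443, plus strand: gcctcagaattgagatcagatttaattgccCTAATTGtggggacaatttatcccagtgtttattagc
Rgs3, 215 bp from the midpoint of the peak at 34111 bp, chr4:62369304-62369370, plus strand: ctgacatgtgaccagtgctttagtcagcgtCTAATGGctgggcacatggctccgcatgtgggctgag
Rgs3, 492 bp from the midpoint of the peak at 48287 bp, chr4:62383757-62383823, plus strand: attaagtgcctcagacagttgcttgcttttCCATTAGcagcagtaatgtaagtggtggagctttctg
Rgs3, −185 bp from the midpoint of the peak at 90307 bp, chr4:62425100-62425166, plus strand: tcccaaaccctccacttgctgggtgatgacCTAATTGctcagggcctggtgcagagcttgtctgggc
Rgs6, −671 bp from the midpoint of the peak at −146534 bp, chr12:83570677-83570743, plus strand: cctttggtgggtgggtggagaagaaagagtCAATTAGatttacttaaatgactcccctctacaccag
The GATA letters were in 4 whole peaks (14.3%, 4.03 to 32.7%) against 33.5%, a share above that counting interval. Several such shares were compared, with many of the peaks from Rgs3 alone, so this is a description and no test. The TEAD letters were in 17 (60.7%, 40.6 to 78.5%) against 47.1% and those of AP-1 in 4 against 23.0%. The 3 GATA matches of 1 Rgs3 peak, at a deposited distance of 14992 bp, were the most in any of the 28 peaks. They lay 171, 193 and 384 bp from its midpoint, the first pair so close that both fall in the same printed stretch.
Rgs3, the GATA match 193 bp from the midpoint of the peak at 14992 bp, chr4:62295861-62295926, plus strand: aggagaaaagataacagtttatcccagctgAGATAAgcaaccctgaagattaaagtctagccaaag
A match is a description of the letters and not evidence of binding.

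The 8 RGS peaks with TEAD letters in the central window were 4 of Rgs3, 3 of Rgs6 and 1 of Rgs12. At Rgs3 they were the peaks at −12919, −255, 59168 and 131853 bp, with 1 match each. The match in the peak at the inner start 114192 bp into Rgs3 is shown in capitals, with the 30 bases on either side.
Rgs3, peak at −255 bp, chr4:62334841-62334906, plus strand: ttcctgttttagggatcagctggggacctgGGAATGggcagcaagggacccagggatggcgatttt

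The Rgs6 peak at −53755 bp had 22 TEAD matches in its central 300 bp, all on the plus strand and the most of any of the 26232 peaks. The next highest count was 14, in 1 peak. The matches form part of a tandem repeat, since 17 of the 21 spacings between neighbouring matches were 11 bp. Of the bases in this window, 74.4% equalled the base 11 further on and 74.5% the base 22 further on, against 11.0 to 32.1% at other offsets from 5 to 30 bases. Over the whole peak there were 27 matches, from −210 to 164 bp around the midpoint. The central window is printed on the plus strand of mm9 with the TEAD letters in capitals.
Rgs6, peak at −53755 bp, chr12:83664008-83664307, plus strand: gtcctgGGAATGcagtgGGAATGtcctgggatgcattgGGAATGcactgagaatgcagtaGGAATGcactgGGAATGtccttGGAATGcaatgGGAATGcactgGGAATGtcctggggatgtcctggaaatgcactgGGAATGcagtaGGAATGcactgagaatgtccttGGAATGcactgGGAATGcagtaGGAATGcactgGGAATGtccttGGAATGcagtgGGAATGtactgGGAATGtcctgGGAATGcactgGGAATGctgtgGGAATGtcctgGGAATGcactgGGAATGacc
Without this peak the TEAD letters were in 7 of 27 RGS windows. Whether reads in this repeat were placed uniquely was not tested.

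**Figure D5:**
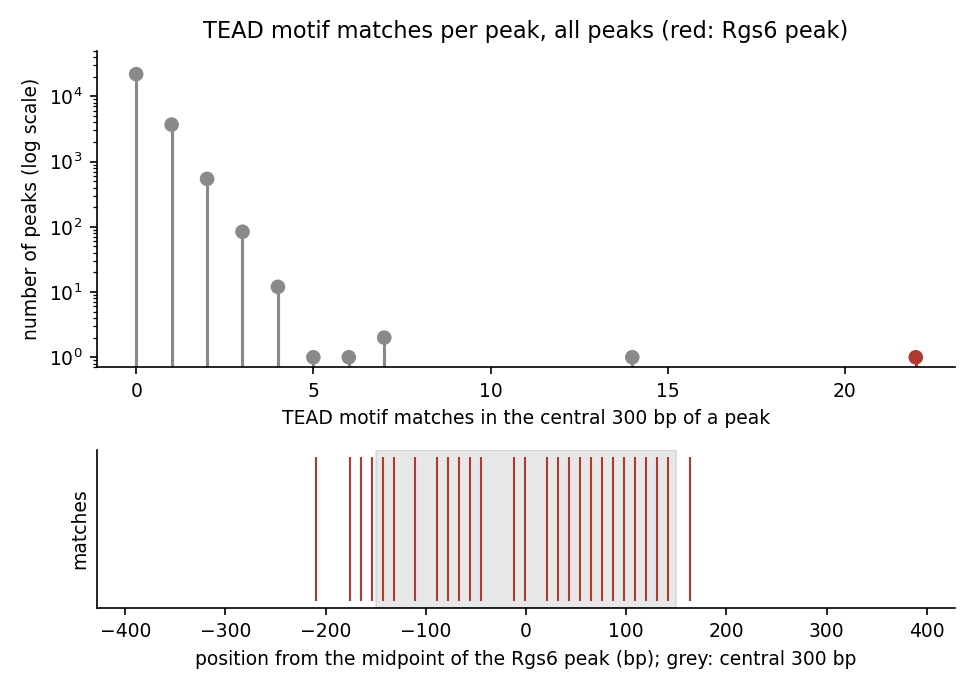
The upper panel gives the number of peaks (y axis, log scale) by the number of TEAD motif matches in the central 300 bp (x axis), over all 26232 peaks, with the Rgs6 peak at 22 in red. The lower panel marks the 27 matches in that peak by position from its midpoint (x axis, bp), which fall between −210 and 164 bp and mostly inside the grey central window.

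Among the 11 RGS genes outside the set, 7 had a peak (63.6%, 30.8 to 89.1%), against 62.5% of all protein coding genes. Rgs20 had 3 peaks, Rgs8, Rgs9, Rgs17 and Rgs22 had 2 each, and Rgs7 and Rgs18 had 1 each. Rgs1, Rgs11, Rgs13 and Rgs21 had none. None of these 11 genes had more than 3 peaks. Rgs22 was placed in none of the families. By family, counting both sets without it, 6 of 10 R4 genes had a peak, 3 of 4 R7 genes, 3 of 3 R12 genes and 3 of 3 RZ genes. Of the 20 R4 peaks 14 belonged to Rgs3, and of the 9 R7 peaks 6 belonged to Rgs6.

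Many RGS genes lie together on chromosome 1. In the cluster Rgs2, Rgs13, Rgs1, Rgs21 and Rgs18, the Rgs2 peak at its start and 1 peak of Rgs18 at −8324 bp were the peaks assigned to the 5 genes, and no peak lay between Rgs13 and Rgs18. Rgs8 and Rgs16 lie 42.681 kb apart with no peak between them, and each had peaks of its own, 2 at Rgs8 and 1 at Rgs16.

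The partners and targets of RGS proteins had few peaks each, and their shares of genes with a peak are to be read against 62.5% of all protein coding genes. The 3 partner genes Gnb5, Rgs7bp and Rgs9bp, which hold R7 proteins in their complexes, had 1 peak each. Of 16 G alpha genes, which include the direct substrates of RGS proteins, 15 had a peak (93.8%, 69.8 to 99.8%), with at most 4 at a gene. Of 16 beta and gamma genes 13 had a peak, of 6 receptor kinase genes 5, and of 13 genes of effectors such as phospholipases and adenylyl cyclases 10. No gene on these lists reached 5 peaks, against 14 at Rgs3 and 6 at Rgs6. The count of Rgs3 was known when the set was put together, so its place above these genes is no separate result.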

How the data were processed

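ATAC-seq was performed by the authors on 2 replicate samples of day 5 CPCs. According to the methods, bowtie2 was used to map reads to mm9, samtools to filter them and Picard 1.136 to remove duplicates. Peaks were called with MACS14 without a fitted model and with a shift of 100 bp, peaks on the ENCODE blacklist were removed, and bedtools 2.15 was used to keep peaks that shared 1 bp or more with one of the other replicate. No other correction for the Tn5 cut position and no filter on mapping quality is given in the sources used here. Assignment to the nearest TSS with HOMER is stated for ChIP-Seq peaks only, and was assumed for this list. The deposited list of 6 columns holds peak start and end, signed distance to a TSS in bp, an accession and a symbol. It holds no counts, scores or values per replicate, so depth is unknown, and regions found in a single replicate are absent.

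The 26429 lines were reduced to 26232 distinct intervals, given 1-based. Gene models came from GENCODE vM1 on NCBIM37, the mm9 assembly. Start sites of transcripts marked as having an unknown start were left out. Sequence was read from the same assembly, and gene totals from a RefSeq table of GRCm38.p6, used for names only. Analyses used Python 3.11.15 with pandas 2.3.3, numpy 2.4.6, scipy 1.17.1 and pysam 0.24.0, and were checked on simulated intervals. Shares of peaks carry exact (Clopper-Pearson) 95% intervals. The genes, lists and motifs were chosen with earlier results of these data known. All 10 genes were named, with other RGS genes, listed genes with 5 or more peaks, genes inside or between them, and the genes most like Rgs3 in number of peaks. No comparison between groups was possible with 1 group.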

Additional observations from a re-analysis of the deposited data

How the results depend on the processing

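Each result was recomputed under the other settings. Of the 22 other settings tried on the main results 15 stayed within 1.5 times a count or within the 95% interval of a share or median, and 7 moved further. The order of a share against all peaks was not part of this count. Among these 15, the share of peaks within 1 kb of a start went from 32.1 to 46.4% by the nearest annotated start of the gene, peaks inside the gene from 15 to 11 when the whole peak had to lie inside, and genes with a promoter peak from 9 to 7 at the outermost coding start. Keeping peaks above the median width of 1081 bp left 13 of the 28 RGS peaks and lowered the genes with a peak within 1 kb of an annotated start from 9 to 5. In that setting Rgs3 had 6 peaks and Rgs6 3. Counting the peaks that overlap the annotated gene, whatever their symbol, gave 18 peaks, with 8 at Rgs3 and 2 at Rgs6, because peaks outside a gene drop out by construction. Assigning peaks anew to the nearest coding start gave 30, with 14 at Rgs3 and 8 at Rgs6. Searching whole peaks in place of the central 300 bp raised the peaks with a motif from 0 to 6 for Isl1, from 1 to 4 for GATA, from 8 to 17 for TEAD and from 0 to 4 for AP-1, with more sequence searched. For Isl1 this turned the order against all peaks. Its RGS share was 0 against 3.13% in central windows, and 21.4% against 12.9% in whole peaks. The other motifs kept their order.

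No replicate was left out, since the list holds no value per replicate. No paired analysis was possible because there was 1 group and 1 shared list. Absence from the list depends on a depth that is unknown.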
